A study of Mus musculus with 12 samples.

Results

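Gene expression in the stromal vascular fraction of adipose tissue from high-fat-fed mice that carry an active telomerase gene was compared with that of mCherry mice kept on a standard diet. The comparison used 6 of the 12 libraries in the series, assigned to groups by their labels, and ran across all 16713 genes that passed the filter on low counts, of 24422 features in the files. The comparison and the gene lists below were chosen with earlier results of these data known, so shares of list members are descriptions. The high-fat group has the genotype p21+/mcherry-Tert, in which the promoter of the cell-cycle inhibitor gene p21 (Cdkn1a) drives mouse Tert beside the fluorescent reporter mCherry (HFD Tert, replicates 25, 26 and 27). The standard-diet group has the genotype p21+/mcherry, with the reporter and no added Tert (SD mCherry, replicates 1, 2 and 3). A group of p21+/mcherry mice on the high-fat diet (HFD mCherry, replicates 15, 17 and 20) is set beside them. By the labels it differs from SD mCherry in diet and not in genotype. The design text describes that last group as p21+/- without naming mCherry, and the labels were followed. The remaining group of the series, p21+/mcherry-TertCi on the high-fat diet (HFD TertCi, replicates 30, 31 and 33), entered the fit, where it bears on the estimate of the spread and so on every p-value. Its levels are given for only a few genes and lists. A difference of HFD Tert from the mCherry groups is therefore not shown to be particular to active Tert. All 12 libraries thus come from mice with 1 modified p21 allele. The labels name the samples as primary stromal cells of adipose tissue, and give no age, sex, depot, diet duration, batch or statement that each library is 1 animal. The p-values therefore measure the spread between libraries, which may in part be technical. Diet and Tert genotype differ together between HFD Tert and SD mCherry, so the contributions of the 2 cannot be told apart from this comparison alone.

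The stromal vascular fraction is what remains of fat after mature adipocytes are removed: adipocyte progenitors, endothelial cells, pericytes, mesothelium and immune cells. In obesity this fraction is known for an accumulation of macrophages, among them lipid-associated macrophages that carry Trem2 and Cd9, and for increased collagen and other matrix. Telomerase is the enzyme that extends chromosome ends, Tert is its catalytic protein subunit, and p21 is a gene that p53 switches on in stressed and senescent cells. A Tert transgene under the p21 promoter is therefore expressed where that promoter is active, and the question here is which of the differences between diets are also seen when active Tert is present.

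Promoter windows are shown for Cdkn1a, whose promoter drives the transgene, for Robo4, an endothelial receptor, and for Inhbb, which encodes the activin beta-B subunit. Robo4 is among the 12 genes higher in HFD Tert that are picked by smallest p below. Inhbb is one of the genes called between diets. Each window holds 250 bases before and 50 bases after a start that RefSeq lists (GRCm38.p6), 5′ to 3′ on the gene's own strand. Cdkn1a has 2 listed starts, and the downstream one is shown, which lies inside the span of the gene (chr17:29090979-29100722). The labels do not say from which start the transgene is driven. The Robo4 start also lies a little inside its gene's span, and the Inhbb start is the higher end of its gene's span on the minus strand. They lie at chr17:29093519-29093818 on the plus strand for Cdkn1a, chr9:37401722-37402021 on the plus strand for Robo4 and chr1:119422199-119422498 on the minus strand for Inhbb. Capitals mark every match, on either strand, to GGGCGG (the core of a GC box, bound by Sp1-type factors) and to GGAAG (letters common in ETS factor sites).
Cdkn1a: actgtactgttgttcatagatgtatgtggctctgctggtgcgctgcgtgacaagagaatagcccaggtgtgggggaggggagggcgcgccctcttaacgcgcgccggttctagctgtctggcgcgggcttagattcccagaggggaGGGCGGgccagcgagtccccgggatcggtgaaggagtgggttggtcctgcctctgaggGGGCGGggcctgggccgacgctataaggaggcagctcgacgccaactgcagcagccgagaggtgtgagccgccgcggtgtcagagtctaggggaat
Robo4: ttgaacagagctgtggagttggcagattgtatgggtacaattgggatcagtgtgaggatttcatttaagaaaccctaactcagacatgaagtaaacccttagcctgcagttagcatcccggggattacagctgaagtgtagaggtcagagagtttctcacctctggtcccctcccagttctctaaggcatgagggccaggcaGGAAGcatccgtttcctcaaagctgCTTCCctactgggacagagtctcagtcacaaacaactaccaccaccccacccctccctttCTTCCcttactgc
Inhbb: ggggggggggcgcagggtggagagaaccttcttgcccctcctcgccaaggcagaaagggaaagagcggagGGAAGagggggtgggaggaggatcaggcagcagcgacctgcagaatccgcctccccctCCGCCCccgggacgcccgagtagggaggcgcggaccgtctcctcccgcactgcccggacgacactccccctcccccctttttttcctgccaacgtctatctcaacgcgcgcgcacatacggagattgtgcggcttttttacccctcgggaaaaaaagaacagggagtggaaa
The Cdkn1a window held 2 matches to GGGCGG and 0 to GGAAG, the Robo4 window held 0 and 3, and the Inhbb window held 1 and 1. Among all 32851 promoter windows of this length, 35.7% held GGGCGG and 71.4% held GGAAG. A match describes the letters only and is not evidence of binding.

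Total counts of the 6 libraries ran from 16430330 to 19121584, and between 16231 and 19147 genes had a count in any 1 of them. Spearman correlations of log2 CPM (counts scaled by library size) ran from 0.898 to 0.983 within HFD Tert, from 0.870 to 0.951 within SD mCherry and from 0.829 to 0.951 between the 2 groups. The labelled cell types were present: Pdgfra, the receptor that marks adipose progenitors, stood at 137, 103 and 84.5 CPM in SD mCherry and 74.3, 61.3 and 89.6 CPM in HFD Tert, and the adipocyte genes Adipoq and Plin1 reached at most 7.85 and 4.23 CPM. Crisp1, a secretory gene of the epididymis, had 8859, 0.242 and 14780 CPM in SD mCherry replicates 1, 2 and 3 and 7974, 3064 and 0.529 CPM in HFD Tert replicates 25, 26 and 27. SD mCherry replicate 2 and HFD Tert replicate 27 thus stood apart with nearly no Crisp1, while the other 4 libraries had much. HFD Tert replicate 27 also had the fewest genes detected and the lowest epithelial levels: its mean over the 13 epithelial markers was −1.20 on the log2 CPM scale with 6 members at 0, against 5.43 to 7.26 in the other 5 libraries. Its level of Adgre1, the F4/80 antigen of macrophages, was 57.1 CPM against 10.4 and 9.08 CPM in replicates 25 and 26 and 18.1, 17.6 and 11.2 CPM in SD mCherry. HFD Tert replicate 27 had the largest influence on many of the list medians below, which are therefore also given without it, or between the libraries with and without Crisp1. The difference without Crisp1 is 1 library against 1, HFD Tert replicate 27 against SD mCherry replicate 2. These 2 are not alike in epithelial RNA, with summed levels of 80.5 and 5657 CPM. The split by Crisp1 was chosen after seeing the data.

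The transgene was checked first. The added feature mCherry_Tert had 0 counts in every SD mCherry library and 1.93, 1.98 and 2.82 CPM in the 3 HFD Tert libraries. Its level in the lowest HFD Tert library was at least 11.1-fold higher than the 0.174 CPM that 3 counts make in SD mCherry replicate 3, the highest such floor of the group. Tert itself, which can hold reads of both the native gene (chr13:73626911-73649843) and the transgene, had 3.97, 2.13 and 0.463 CPM in SD mCherry and 8.99, 6.99 and 16.6 CPM in HFD Tert. The groups did not overlap, and the mean of log2(CPM + 0.1) was 2.57 higher in HFD Tert (2-sided exact permutation test, p = 0.1, the smallest that 3 against 3 libraries allow). Cdkn1a had 213, 261 and 150.1 CPM in SD mCherry and 237, 267 and 433 CPM in HFD Tert. These overlap, with a log2 fold change of 0.59 ± 0.37 (SE, edgeR adjusted p = 0.459), so no difference in the driving gene passed the test, and the value was 0.28 without HFD Tert replicate 27.

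No gene passed the test between HFD Tert and SD mCherry. With edgeR's quasi-likelihood test at an adjusted p under 0.05, 0 of 16713 genes were called (0%), and the smallest adjusted p was 0.169, shared by the genes of smallest p. An unadjusted p under 0.05 was reached by 2647 genes (15.8%), of which 1164 (6.96%) were higher and 1483 (8.87%) lower in HFD Tert. All 3 libraries of one group lay outside the range of the other for 3886 genes (23.3%), with 1885 (11.3%) higher and 2001 (12%) lower in HFD Tert. DESeq2, run as an alternative, called 966 of 16536 genes (5.84%), 293 (1.77%) higher and 673 (4.07%) lower, while limma-voom called 0, with 2366 genes at an unadjusted p under 0.05. Leaving out SD mCherry replicate 3 gave 484 edgeR calls, 36 higher and 448 lower. The number of genes at an unadjusted p under 0.05 was 3424 without that library, 1502 without HFD Tert replicate 27, 1725 without SD mCherry replicate 1 and 1070 with only the 8 libraries of the series that hold Crisp1. Genes are therefore described below by their values in each library, and their differences as higher or lower without a call. For scale, HFD mCherry against SD mCherry gave 8 edgeR calls in the same fit (0.0479%), 7 higher (0.0419%) and 1 lower (0.00598%), and HFD Tert against HFD mCherry, which tests whether the first 2 comparisons differ, gave 0 (0%), with 2735 genes (16.4%) at an unadjusted p under 0.05 and 847 DESeq2 calls (5.12%). The first 2 comparisons share the SD mCherry libraries, so their values are set side by side and not correlated.

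Of the 7 genes called between diets in mCherry mice that are described here, 3 were also higher in every HFD Tert library than in every SD mCherry library, namely Sh2d5, Inhbb and Alcam (11.3% of all genes were higher without overlap), and the other 4 overlapped with SD mCherry. These genes were picked by the diet comparison, which shares its SD mCherry libraries with this one, so their direction here is not independent of that choice. Sh2d5 (chr4:138250411-138260968), an SH2-domain adaptor gene that shares exon sequence with Kif17, had 1.94, 1.26 and 1.97 CPM in SD mCherry, 19.7, 16.1 and 12.5 CPM in HFD mCherry and 9.75, 4.59 and 12.5 CPM in HFD Tert. Its log2 fold change against SD mCherry was 2.37 ± 0.43 (SE) in HFD Tert and 3.22 ± 0.44 in HFD mCherry. Inhbb (chr1:119415463-119422248) had 45.9, 43.5 and 48.4 CPM in SD mCherry, 229.5, 313 and 311 CPM in HFD mCherry and 73.4, 115 and 214 CPM in HFD Tert. The Tert libraries were spread between the other 2 groups, with a log2 fold change of 1.54 ± 0.34 beside 2.63 ± 0.35 for diet in mCherry mice. Without HFD Tert replicate 27, the highest of the 3, the value was 1.04. Alcam (chr16:52248996-52453081), an adhesion molecule of leukocytes and endothelium, had 17.8, 25.7 and 19.8 CPM in SD mCherry, 56.9, 71.1 and 73.3 CPM in HFD mCherry and 46.3, 36.2 and 31.03 CPM in HFD Tert, a log2 fold change of 0.84 ± 0.23 beside 1.67 ± 0.23. For all 3 the edgeR adjusted p was 0.169 in HFD Tert against SD mCherry, and DESeq2 called each of them higher (1.77% of all genes were).

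The remaining diet genes overlapped with the standard-diet level in HFD Tert. Slc7a8 (chr14:54722215-54781886), a transporter of neutral amino acids, had 21.99, 27.9 and 27.3 CPM in SD mCherry and 35.2, 24.7 and 46.5 CPM in HFD Tert, against 88.5, 108 and 97.7 CPM in HFD mCherry, a log2 fold change of 0.46 ± 0.23 beside 1.93 ± 0.24. Without HFD Tert replicate 27 it was 0.22. Tnfaip8l2 (chr3:95139521-95142416), a negative regulator of innate immune signalling, had 1.17, 1.07 and 1.62 CPM in SD mCherry, 1.52, 1.71 and 1.88 CPM in HFD Tert and 5.91, 15.03 and 16.1 CPM in HFD mCherry. The Tert libraries overlapped with SD mCherry, with a log2 fold change of 0.40 ± 0.43 beside 3.26 ± 0.46. The uncharacterised gene 4930404N11Rik (chr10:81364024-81365820), which shares exon sequence with Mfsd12, had 9.83, 7.71 and 9.44 CPM in SD mCherry, 10.4, 8.702 and 11.6 CPM in HFD Tert and 36.2, 58.3 and 59.7 CPM in HFD mCherry, with a log2 fold change of 0.18 ± 0.27 beside 2.51 ± 0.29. Cfd (chr10:79890853-79892655), which encodes the complement protease adipsin, was the diet gene that was lower in HFD mCherry. It had 19.2, 15.8 and 10.1 CPM in SD mCherry, 0.387, 0.421 and 0.418 CPM in HFD mCherry and 5.72, 13.2 and 3.996 CPM in HFD Tert. The log2 fold change against SD mCherry was −0.97 ± 0.44 in HFD Tert (edgeR adjusted p = 0.318) and −5.18 ± 0.54 in HFD mCherry. The overlap with SD mCherry came from HFD Tert replicate 26, without which the value was −1.64. In the test of HFD Tert against HFD mCherry, none of the 7 passed: the smallest edgeR adjusted p, 0.0554, belonged to Cfd and 4930404N11Rik. DESeq2 called 5 of the 7 there, Cfd, 4930404N11Rik, Tnfaip8l2, Slc7a8 and Alcam (5.12% of all genes were called). All 7 lay outside the HFD mCherry range in HFD Tert, against 21.1% of all genes, Sh2d5 by less than the rounding of its values, and these genes were chosen on those HFD mCherry libraries. The HFD TertCi libraries also lay outside that range for each of the 7. They had 1.836, 3.09 and 3.007 CPM of Tnfaip8l2 and 6.682, 11.85 and 8.672 CPM of 4930404N11Rik.

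**Figure D1:**
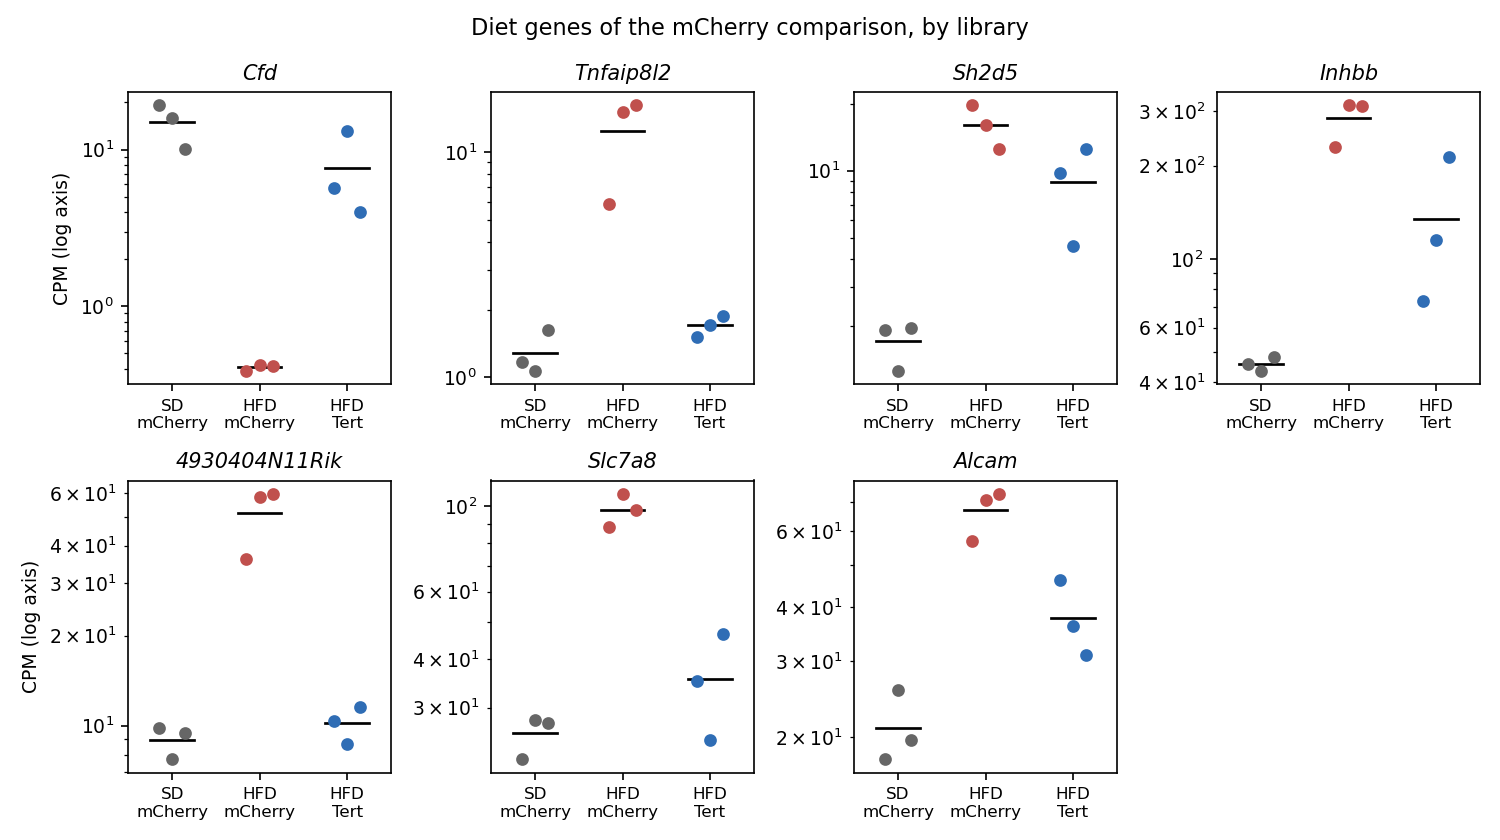
CPM (counts scaled by library size, log axis) of the 7 diet genes in each library of SD mCherry, HFD mCherry and HFD Tert, with 1 point a library and a bar at the group mean. For Sh2d5, Inhbb and Alcam the HFD Tert points lie above all SD mCherry points, while for Tnfaip8l2, 4930404N11Rik, Slc7a8 and Cfd the points of these 2 groups overlap.

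Endothelial genes were higher in HFD Tert nearly throughout. Of 20 endothelial genes tested, all 20 had a log2 fold change above 0, and 18 were higher in every HFD Tert library than in every SD mCherry library (11.3% of all genes were). An unadjusted p under 0.05 was reached by 19 (6.96% of all genes were higher at that p). EdgeR called 0 and DESeq2 called 13 as higher (1.77% of all genes were). The median log2 fold change was 1.43, beside −0.06 over all genes tested and 1.07 for the same list in HFD mCherry. The summed level was 1791, 2238 and 1636 CPM in SD mCherry and 3800, 5190 and 8420 CPM in HFD Tert. In HFD TertCi it was 3873, 8851 and 5294 CPM. More endothelial cells and more RNA per endothelial cell cannot be told apart in these bulk libraries. Robo4 (chr9:37401902-37414023), a guidance receptor of blood vessels whose promoter is shown above, had 55.04, 45.6 and 39.04 CPM in SD mCherry, 89.6, 132 and 141 CPM in HFD mCherry and 119, 141 and 265 CPM in HFD Tert. Its log2 fold change was 1.91 ± 0.38 in HFD Tert and 1.38 ± 0.37 in HFD mCherry, both against SD mCherry. Sox18 (chr2:181669837-181671640), a transcription factor of vessel formation, had 14.7, 21.2 and 20.4 CPM in SD mCherry and 36.7, 41.3 and 65.99 CPM in HFD Tert, a log2 fold change of 1.35 ± 0.25. It had the smallest p of the list, and the HFD mCherry libraries, at 38.2, 49.3 and 49.6 CPM, covered much the same range as HFD Tert.

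The other endothelial members behaved alike. Pecam1, the junction protein CD31, had 211, 271 and 176 CPM in SD mCherry and 510.2, 619 and 990.4 CPM in HFD Tert, and Cdh5, the adhesion protein VE-cadherin, had 190.4, 179.8 and 132 and 369.5, 490.2 and 839 CPM. Gpihbp1 (chr15:75596630-75598213), which anchors lipoprotein lipase on the capillary wall, had 43.5, 49.5 and 35.6 CPM in SD mCherry, 83.4, 151 and 114 CPM in HFD mCherry and 78.4, 224 and 367 CPM in HFD Tert, a log2 fold change of 2.38 ± 0.49. Cldn5, the tight junction protein of endothelium, had 242, 268 and 140 CPM in SD mCherry and 413, 1036 and 1744 CPM in HFD Tert. The exception by p was Kdr, the VEGF receptor, with 90.9, 81.4 and 37.2 against 68.2, 109.6 and 115 CPM, which overlap (log2 fold change 0.48 ± 0.32). Vwf and Emcn, genes of larger vessels and of capillaries and veins, had log2 fold changes of 1.45 and 1.42 in HFD Tert beside 0.22 and −0.12 in HFD mCherry. Replicate 27 was the highest HFD Tert library for the list as a whole. Without it the median log2 fold change was 1.06. Between the 4 libraries with Crisp1 the median difference was 1.17, with 20 of 20 members higher. Between the 2 libraries without Crisp1, 1 against 1, it was 1.89, with 20 of 20 higher.

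Matrix genes were higher in HFD Tert than in SD mCherry. Their log2 fold changes were smaller than in HFD mCherry for 17 of 17 collagens and 18 of 21 other matrix genes. All 17 collagens tested had a log2 fold change above 0, 8 were higher without overlap with SD mCherry (11.3% of all genes were), 6 had an unadjusted p under 0.05 (6.96% of all genes were higher at that p), and the median was 1.04, beside 2.58 for HFD mCherry. Of 21 other matrix genes all were above 0, 14 did not overlap, 10 had an unadjusted p under 0.05, and the median was 1.07, beside 2.38. DESeq2 called 2 collagens and 7 other matrix genes as higher (1.77% of all genes were). In HFD Tert against HFD mCherry the medians were −1.59 and −1.13, with 13 collagens and 10 other matrix genes lower at an unadjusted p under 0.05 (9.75% of all genes were), 0 called by edgeR and 4 and 2 by DESeq2 (3.21% of all genes were). Tnc (chr4:63959785-64047015), which encodes tenascin C, a matrix protein of remodelling tissue, had the smallest p of both lists, with 42, 38.6 and 43.7 CPM in SD mCherry, 143, 420 and 522 CPM in HFD mCherry and 163, 201 and 244 CPM in HFD Tert. The log2 fold change was 2.29 ± 0.47 in HFD Tert and 3.12 ± 0.49 in HFD mCherry. Col4a1, a chain of the basement membrane collagen that surrounds vessels and adipocytes, had the smallest p among collagens, with 352, 304 and 298 CPM in SD mCherry and 584, 864 and 1672 CPM in HFD Tert (log2 fold change 1.71 ± 0.46).

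Fibrillar collagen showed more overlap. Col1a1, the main chain of fibrous tissue, had 612, 509 and 206 CPM in SD mCherry, 587, 713 and 1064 CPM in HFD Tert and 1348, 3601 and 4652 CPM in HFD mCherry, so the 2 lower Tert libraries were near SD mCherry replicates 1 and 2. Its log2 fold change was 0.83 ± 0.50 beside 2.86 ± 0.54 for diet. Col16a1 had the largest p, with 76.2, 104 and 36.9 CPM in SD mCherry and 70.8, 92.8 and 90.3 CPM in HFD Tert. Eln, which encodes elastin, had 166, 209.9 and 109.9 CPM in SD mCherry, 206, 479.6 and 639 CPM in HFD mCherry and 388, 491 and 727 CPM in HFD Tert, and its log2 fold change in HFD Tert, 1.73 ± 0.45, stood beside 1.45 ± 0.44 for diet. Postn, which encodes periostin, had 111, 107 and 88.3 CPM in SD mCherry and 209, 285 and 953 CPM in HFD Tert, the last from replicate 27. Without that replicate the median was 0.57 for collagens and 0.77 for the other matrix genes. In a fit of only the 8 libraries of the series that hold Crisp1 it was 0.76 and 1.00.

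Genes of macrophage identity, which were high in HFD mCherry, overlapped with the standard-diet level in HFD Tert. Of 18 tested, 0 reached an unadjusted p under 0.05 and 0 were without overlap in HFD Tert against SD mCherry, with a median log2 fold change of 0.45. In HFD mCherry 16 of the 18 reached an unadjusted p under 0.05 (14.1% of all genes were higher at that p), 16 were called higher by DESeq2 (8.5% of all genes were) and the median was 2.26. Adgre1 had 53.8, 186 and 159.8 CPM in HFD mCherry, and the values given above for HFD Tert straddled SD mCherry. Csf1r, the receptor for the main macrophage growth factor, had 60.8, 67.6 and 20.7 CPM in SD mCherry, 38.8, 43.6 and 113 CPM in HFD Tert and 124, 306 and 283 CPM in HFD mCherry. Cd68, a lysosomal glycoprotein of macrophages, had 30.04, 34.4 and 22.2 CPM in SD mCherry, 19.5, 13.1 and 92.4 CPM in HFD Tert and 124, 433 and 441 CPM in HFD mCherry. For each of these genes replicates 25 and 26 were within or below the SD mCherry range, and replicate 27 was above it. Without replicate 27 the list median was −0.40, and in a fit of only the 8 libraries of the series that hold Crisp1 it was −0.46. With a score of the epididymis and epithelium genes as a covariate in the fit it was −0.18. The median difference in log2(CPM + 0.1) was −0.34 between the 4 libraries with Crisp1 and 1.28 between the 2 without. In the test of HFD Tert against HFD mCherry 15 of the 18 genes were lower at an unadjusted p under 0.05 (9.75% of all genes were). The median was −1.77, and 0 were called by edgeR and 13 as lower by DESeq2 (3.21% of all genes were).

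Lipid-associated macrophage genes were higher in part. Of 18 tested, 8 were higher without overlap (11.3% of all genes were), 4 were higher and 1 lower at an unadjusted p under 0.05 (6.96% and 8.87% of all genes were), and the median log2 fold change was 1.12, beside 3.07 in HFD mCherry. Fabp5, a fatty-acid binding protein, had the smallest p, with 7.69, 14.2 and 8.17 CPM in SD mCherry, 19.2, 51.95 and 39.4 CPM in HFD mCherry and 18.1, 41.1 and 58.4 CPM in HFD Tert (log2 fold change 1.97 ± 0.49). Cd36, a fatty-acid and lipoprotein receptor that capillary endothelium also carries, had 215, 192 and 64.7 CPM in SD mCherry, 669, 1862 and 1845 CPM in HFD mCherry and 256, 790.4 and 1734 CPM in HFD Tert. Plin2, which coats lipid droplets in many cell types, had 58.9, 138 and 42.8 CPM and 148, 228 and 530.4 CPM. Trem2, the lipid receptor that defines these macrophages, had 10.3, 13.6 and 22.5 CPM in SD mCherry, 63.1, 253 and 226 CPM in HFD mCherry and 13.9, 6.35 and 70.5 CPM in HFD Tert, so only replicate 27 was above SD mCherry. The same replicate was highest for Itgax, the CD11c integrin, with 7.29, 4.11 and 64.05 CPM against 6.57, 8.39 and 10.7 CPM in SD mCherry. Spp1, the cytokine osteopontin, was the member lower in HFD Tert, with 12.4, 52.03 and 258 CPM in SD mCherry and 4.49, 3.26 and 19.7 CPM in HFD Tert. These overlap, and the standard-diet libraries themselves differed widely. Without replicate 27 the list median was 0.28, and with the epididymis and epithelium score as covariate it was 0.23. Between the 4 libraries with Crisp1 the median difference was 0.31, with 10 of 18 higher, and between the 2 without it was 2.09, with 17 of 18 higher.

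Some inflammatory and interferon genes were higher in HFD Tert. Of 20 inflammation genes 8 were higher without overlap (11.3% of all genes were) and 7 at an unadjusted p under 0.05 (6.96% of all genes were), with a median log2 fold change of 0.84 beside 1.58 in HFD mCherry. Nos2, the inducible nitric oxide synthase, had the smallest p, with 2.04, 1.55 and 1.45 CPM in SD mCherry and 2.74, 4.59 and 5.76 CPM in HFD Tert. Ccl2, the chemokine that draws monocytes, had 266, 506 and 341 CPM in SD mCherry, 769, 2781 and 2178 CPM in HFD mCherry and 754, 759 and 2162 CPM in HFD Tert, and Il6 had 313, 445 and 482, 522, 1801 and 1436 and 813, 1069 and 1922 CPM in the same order. Both were above SD mCherry in all 3 HFD Tert libraries. Tnf had 50.7, 55.9 and 19 CPM in SD mCherry and 41.6, 52.5 and 163 CPM in HFD Tert, which overlap, and Il18 had the largest p, with 4.58, 9.504 and 4.34 against 2.98, 6.94 and 8.52 CPM. Of 16 interferon response genes 9 were higher without overlap and 9 at that p, against the same shares of all genes, with a median of 1.09 beside 1.23 in HFD mCherry. Oasl2, an antiviral gene, had the smallest p, with 19.9, 17.6 and 13.6 CPM in SD mCherry and 31.8, 40.7 and 46.1 CPM in HFD Tert. Ifit1, another, had 44.8, 34.96 and 50.2 CPM in SD mCherry and 68.1, 58.4 and 307 CPM in HFD Tert, and its difference was largest in replicate 27. Without replicate 27 the medians were 0.17 for inflammation and 0.35 for interferon response. Between the libraries with Crisp1 the median differences were 0.21 and 0.198, and between those without, 1 against 1, they were 1.52 and 1.85.

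**Figure D2:**
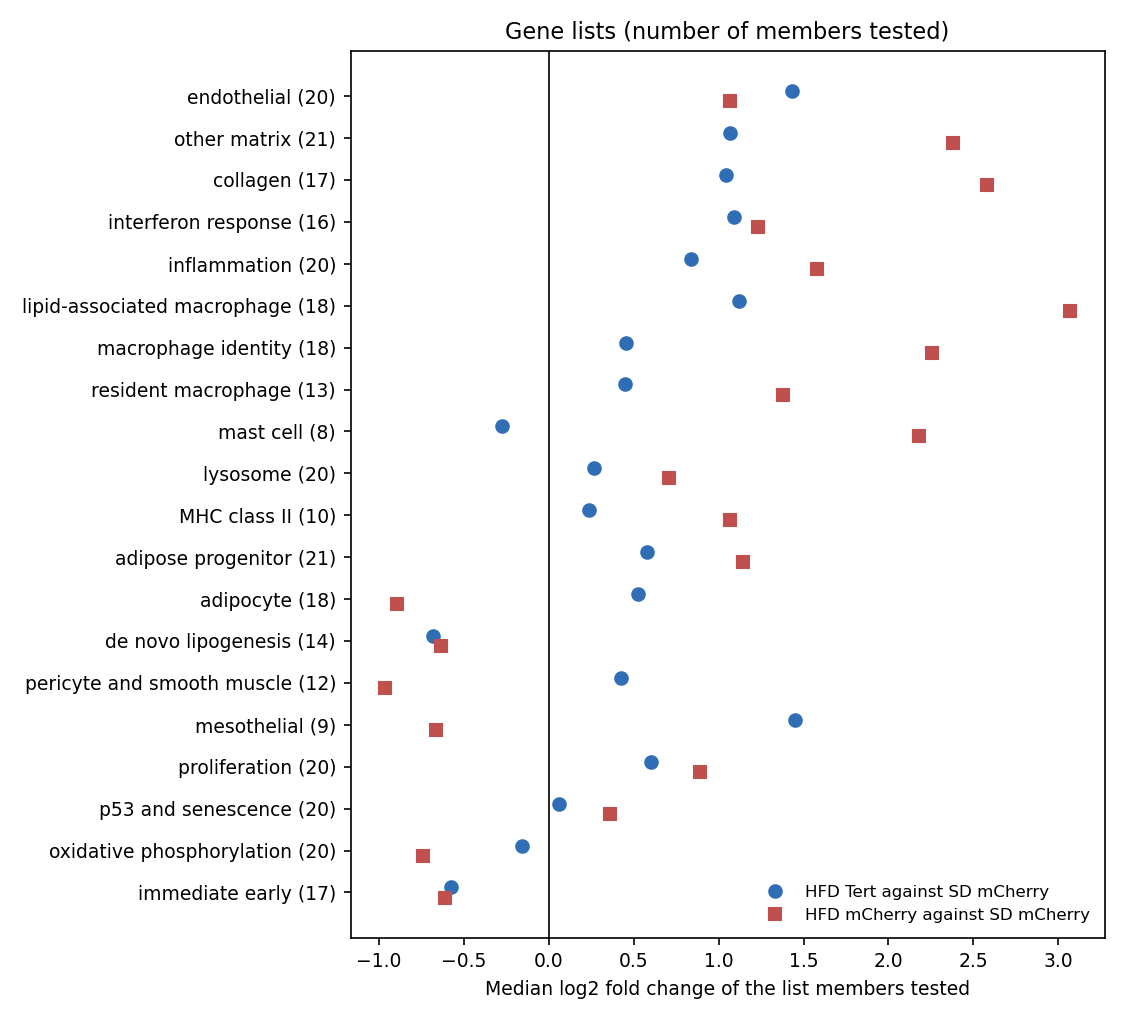
Median log2 fold change of the tested members of 20 gene lists in HFD Tert (circles) and HFD mCherry (squares), each against SD mCherry, with the number of members tested in parentheses. Endothelial genes lie at 1.43 and 1.07, macrophage identity genes at 0.45 and 2.26, collagens at 1.04 and 2.58, and mesothelial genes at 1.45 and −0.66.

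Lipid genes took several directions. Of 18 adipocyte genes, 4 were higher without overlap and at an unadjusted p under 0.05 (11.3% and 6.96% of all genes were), 0 were lower in these ways, and the median log2 fold change was 0.53, beside −0.90 in HFD mCherry. In HFD Tert 12 were above 0 and 6 below. In HFD mCherry 7 were above 0 and 11 below, with 3 higher and 7 lower at that p (14.1% and 10% of all genes were). Fabp4, Pparg and Lep, given next, were higher in HFD mCherry and so went against that median, while Cfd was lower. The median in HFD Tert was 0.16 without HFD Tert replicate 26 and 0.28 without SD mCherry replicate 3. Between the libraries with Crisp1 the median difference was 0.69, with 17 of 18 higher. Between those without Crisp1, 1 against 1, it was 0.13, with 9 of 18 higher. Fabp4 (aP2), a fatty-acid binding protein of adipocytes and also of capillary endothelium, had 335, 446 and 207 CPM in SD mCherry, 878, 1686 and 983 CPM in HFD mCherry and 702, 2062 and 6132 CPM in HFD Tert, with a log2 fold change of 3.17 ± 0.71. All 3 HFD Tert libraries were above SD mCherry, over a wide range. Pparg, the master transcription factor of adipocyte formation, had 10.2, 15.7 and 3.42 CPM in SD mCherry, 19.9, 35.1 and 38.2 CPM in HFD mCherry and 18.3, 28.9 and 47.1 CPM in HFD Tert. Lep, which encodes leptin, had 1.78, 1.55 and 1.27 CPM in SD mCherry, 4.31, 4.51 and 4.48 CPM in HFD mCherry and 3.21, 3.68 and 11.5 CPM in HFD Tert. The defining marker Adipoq, adiponectin, stayed low, with 4.79, 2.28 and 1.16 CPM in SD mCherry and 2.22, 7.85 and 3.23 CPM in HFD Tert. Angptl4 (chr17:33774900-33781575), an inhibitor of lipoprotein lipase and a target of PPAR factors, had 94.8, 88.6 and 53.9 CPM in SD mCherry, 358, 673 and 677 CPM in HFD mCherry and 178, 333 and 694 CPM in HFD Tert. Its log2 fold change was 2.34 ± 0.47, beside 2.85 ± 0.48 for diet.

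Genes of de novo lipogenesis, the synthesis of fatty acids from carbohydrate, were in large part lower, with 11 below 0 and 3 above. The list also holds genes of triglyceride synthesis. Of 14 genes, 6 were lower without overlap (12% of all genes were) and 4 at an unadjusted p under 0.05 (8.87% of all genes were), and the median log2 fold change was −0.68, beside −0.64 in HFD mCherry. It was −0.39 without HFD Tert replicate 27. The median difference was −0.53 between the libraries with Crisp1 and −1.33 between those without, 1 against 1. Fasn, fatty acid synthase, had 539.6, 398 and 168 CPM in SD mCherry, 260.2, 79.5 and 98.2 CPM in HFD mCherry and 132, 103 and 23.03 CPM in HFD Tert. Srebf1, the transcription factor that controls these enzymes, had 244, 322 and 152 CPM in SD mCherry and 118, 83.7 and 68.6 CPM in HFD Tert (log2 fold change −1.41 ± 0.44). Mlxipl, which encodes the glucose-responsive factor ChREBP, had the smallest p, with 19.6, 22.3 and 3.42 CPM in SD mCherry, 14.1, 1.02 and 0.836 CPM in HFD mCherry and 0.467, 0.374 and 0 CPM in HFD Tert. Dgat1, an enzyme of triglyceride synthesis, went the other way with 49.3, 56.6 and 55.5 against 74.9, 87.8 and 124 CPM. Slc27a1 (chr8:71568728-71587307), a fatty-acid transport protein, had 102, 117 and 32.6 CPM in SD mCherry, 108, 88.99 and 110.1 CPM in HFD mCherry and 23.8, 21.5 and 23.1 CPM in HFD Tert. The log2 fold change was −1.88 ± 0.37 against SD mCherry and −2.17 ± 0.38 against HFD mCherry (edgeR adjusted p = 0.169 and 0.147). The 3 HFD Tert libraries lay close together and below all 6 mCherry libraries. The HFD TertCi libraries, at 31.98, 27.43 and 30.98 CPM, also lay below all 6. Epithelial and epididymal RNA, which can hold lipogenic enzymes, varied among these libraries as given above. With a score of the epididymis and epithelium genes as a covariate in the fit, the list median was −0.39. Beyond that covariate, the part of such RNA in these values was not tested.

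Beyond the lists, 12 genes of smallest p were taken in each direction among those without overlap and with a mean of at least 5 CPM in the higher group. The 12 higher in HFD Tert were, with the genes already described, Cabp1, Trp53i11, Sema7a, Gprc5a, Adgrl2 and Exoc3l. Cabp1 (chr5:115168691-115194381), a calmodulin-like calcium sensor, had 1.27, 0.824 and 0.463 CPM in SD mCherry, 3.42, 4.03 and 3.82 CPM in HFD mCherry and 3.97, 4.11 and 7.17 CPM in HFD Tert, a log2 fold change of 2.56 ± 0.48. Trp53i11 (chr2:93187349-93201757), a p53-inducible gene, had 46.4, 63.4 and 53.7 CPM in SD mCherry and 95.7, 122 and 144 CPM in HFD Tert. Sema7a (chr9:57939596-57962865), a membrane-anchored semaphorin that acts on monocytes and axons, had 65.4, 69.1 and 68.1 CPM in SD mCherry, 236, 341 and 257 CPM in HFD mCherry and 126, 174 and 321 CPM in HFD Tert. Adgrl2 (chr3:148815586-148989096), the adhesion receptor latrophilin 2, had 43.3, 46.5 and 54.4 and 90.1, 91.2 and 115 CPM, and Exoc3l (chr8:105289923-105296966), related to a subunit of the exocyst, had 3.26, 3.78 and 3.302 and 6.13, 10.1 and 17.6 CPM. All of these were also higher in HFD mCherry, with log2 fold changes for diet of 2.13, 0.94, 2.04, 0.76 and 1.49. Gprc5a (chr6:135065662-135084709), an orphan receptor induced by retinoic acid, was less so: it had 75.5, 77.3 and 62.6 CPM in SD mCherry, 69.8, 103 and 108 CPM in HFD mCherry and 140.1, 173 and 144 CPM in HFD Tert. Its log2 fold change of 1.08 ± 0.22 in HFD Tert stood beside 0.38 ± 0.22 for diet, and the difference between them, 0.70 ± 0.22, did not pass (edgeR adjusted p = 0.213).

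The 12 genes lower in HFD Tert came with differences between libraries of the same group. Foxj1 (chr11:116330704-116335499), the transcription factor that switches on motile cilia, had 218, 239.5 and 8.75 CPM in SD mCherry, 31.2, 2.104 and 12.1 CPM in HFD mCherry and 0.584, 1.39 and 0.764 CPM in HFD Tert. SD mCherry replicates 1 and 2 were far above replicate 3, and all HFD Tert libraries were near 1 CPM. Mapk15 (chr15:75993732-75999153), a kinase of ciliated cells, had 62.7, 133 and 7.88 CPM in SD mCherry and 0.7003, 1.01 and 0.646 CPM in HFD Tert. Ccl28 (chr13:119623819-119654359), a chemokine of mucosal epithelia, had 68.4, 94.3 and 8.17 CPM in SD mCherry and 0.642, 0.908 and 0.294 CPM in HFD Tert. Mt3 (chr8:94152607-94154148), a metallothionein, had 32.1, 95.1 and 7.53 and 1.401, 1.23 and 0.529 CPM, and Ccdc170 (chr10:4482515-4564498), a microtubule-associated protein, had 8.45, 6.69 and 1.27 and 0.3501, 0.3203 and 0.4701 CPM. Mak (chr13:41025007-41079706), a kinase of cilia and male germ cells, and Iyd (chr10:3540274-3554880), the iodotyrosine deiodinase, had 1 count in all over the 3 HFD Tert libraries each, against 15.9, 28.3 and 2.67 CPM and 53.3, 117 and 3.88 CPM in SD mCherry. The same SD mCherry pattern, with replicate 3 lowest, held for Cideb (chr14:55754052-55758424), which shares exon sequence with Nop9 and had 31.9, 67.5 and 6.14 CPM against 1.23, 1.495 and 0.764 CPM, and for Fam65b, with 27.4, 45.8 and 4.69 against 2.57, 1.23 and 1.53 CPM.

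Motile cilia genes as a group were then examined, as a list of 15 chosen after these values were seen and so given as a description. The summed level of the 12 that were tested was 560.2, 662 and 46.4 CPM in SD mCherry, 109, 11.9 and 55.7 CPM in HFD mCherry and 18.2, 18.8 and 7.99 CPM in HFD Tert. HFD Tert was lower than SD mCherry for 12 of the 12, without overlap for 10 (12% of all genes were lower without overlap). The part of ciliated epithelium carried into the samples was not tested. Noxo1 (chr17:24696234-24700530), an organiser of NADPH oxidase that shares exon sequence with Tbl3, and Sephs2 (chr7:127271879-127274059), an enzyme of selenocysteine synthesis, were lower with less spread: Noxo1 had 8.401, 11.4 and 7.704 CPM in SD mCherry, 4.31, 3.79 and 3.82 CPM in HFD mCherry and 2.51, 2.19 and 2.12 CPM in HFD Tert, and Sephs2 had 84.6, 91.4 and 52.1, 43.5, 27.2 and 31.1 and 33.4, 30.2 and 23.4 CPM in the same order. Their log2 fold changes were −2.01 ± 0.32 and −1.39 ± 0.27, beside −1.21 ± 0.31 and −1.16 ± 0.27 for diet.

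**Figure D3:**
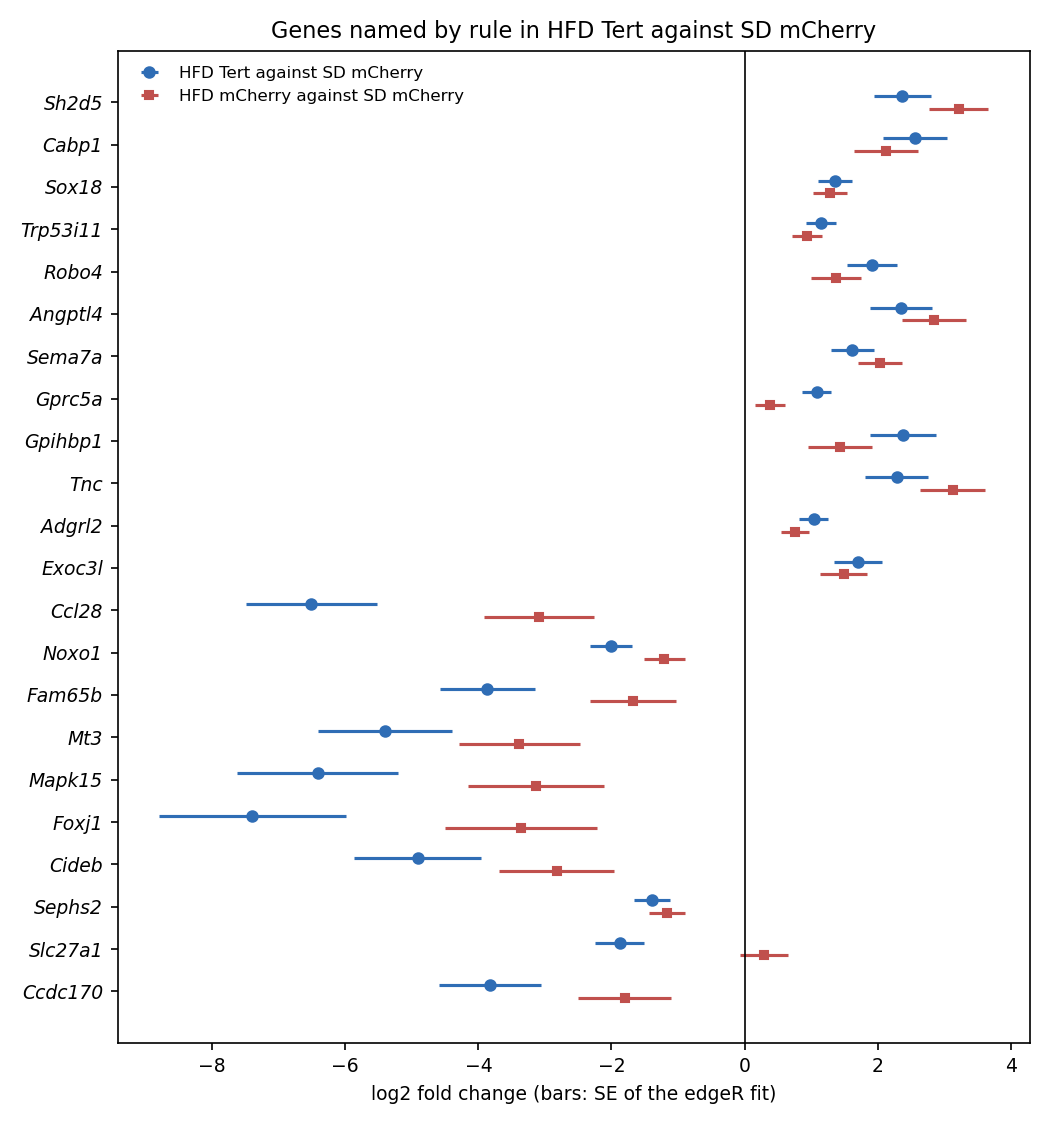
Log2 fold change with the SE of the edgeR fit for 22 of the 24 genes of smallest p, in HFD Tert (circles) and HFD mCherry (squares), each against SD mCherry. Mak and Iyd are left out because each had 1 count in all over the HFD Tert libraries. Slc27a1 lies at −1.88 and 0.29, and the genes were picked on the circles, with standard-diet libraries that both comparisons share.

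Mesothelial genes, which mark the outer lining of visceral fat, were higher in part in HFD Tert against SD mCherry. Of 9 tested, 8 had a log2 fold change above 0, 5 were higher without overlap (11.3% of all genes were) and 5 at an unadjusted p under 0.05 (6.96% of all genes were), with a median of 1.45 beside −0.66 for diet. The median was 2.06 when SD mCherry replicate 2 was left out and 1.03 when replicate 3 of that group was. Between the libraries with Crisp1 the median difference was 2.098, with 9 of 9 higher. Between those without Crisp1, 1 against 1, it was 0.62, with 6 of 9 higher. Msln, which encodes mesothelin, had 36.8, 74.3 and 15.8 CPM in SD mCherry, 24.1, 33.5 and 36.4 CPM in HFD mCherry and 101, 304 and 194 CPM in HFD Tert (log2 fold change 2.24 ± 0.61). Upk3b had 86.5, 269 and 32.8 CPM in SD mCherry, 35.5, 69.7 and 55.8 CPM in HFD mCherry and 273, 533 and 256 CPM in HFD Tert, which overlap SD mCherry. Krt19, a keratin that other epithelia also carry, had the largest p, with 344, 694 and 348 against 447, 398 and 35.3 CPM and its lowest value in replicate 27. Against HFD mCherry, 6 of the 9 were higher in HFD Tert without overlap (9.99% of all genes were) and 6 at an unadjusted p under 0.05 (6.62% of all genes were). The median was 2.15, with 0 edgeR calls and 5 higher by DESeq2 (1.92% of all genes were).

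**Figure D4:**
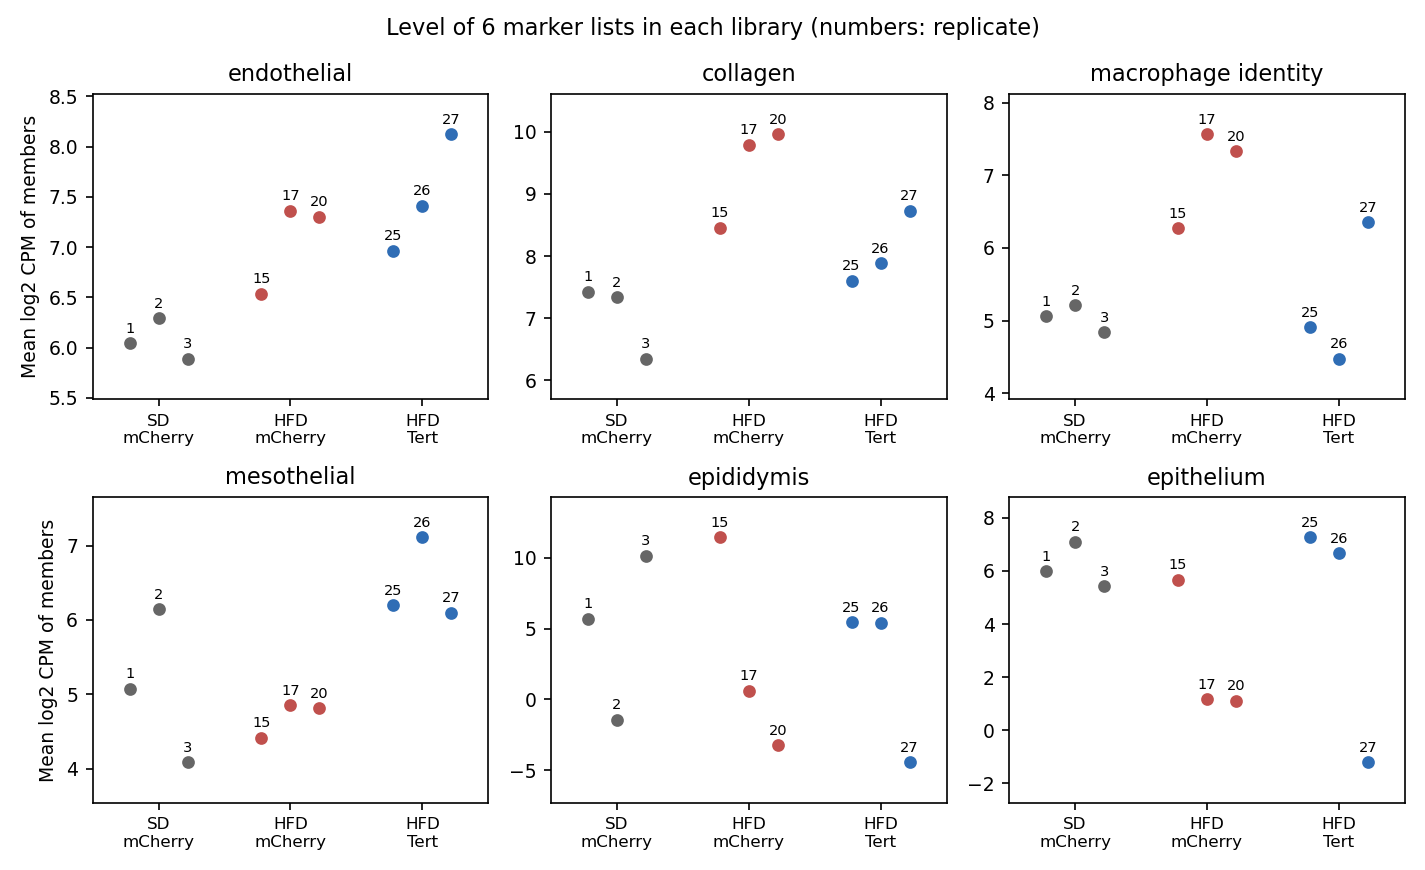
Mean log2 CPM of the tested members of 6 marker lists in each library of SD mCherry, HFD mCherry and HFD Tert, with the replicate number above each point. All HFD Tert libraries lie above SD mCherry for endothelial genes, replicate 27 alone lies above SD mCherry for macrophage identity genes, and the epididymis and epithelium panels show the libraries that lack those transcripts.

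Progenitor, stress and energy genes showed small or mixed differences. Of 21 adipose progenitor genes 4 were higher and 1 lower at an unadjusted p under 0.05 (6.96% and 8.87% of all genes were), with a median log2 fold change of 0.58 beside 1.15 for diet and of 0.34 without HFD Tert replicate 27. The lower one was Pdgfra, for which the levels given above overlap (−0.53 ± 0.21), and HFD mCherry stood at 198, 232 and 232 CPM, with a log2 fold change of −1.55 ± 0.22 in HFD Tert against HFD mCherry. Anxa3, an annexin, had the smallest p of the list, with 52.8, 68.95 and 76.7 CPM in SD mCherry and 98.7, 163 and 214 CPM in HFD Tert. Of 20 p53 target and senescence genes 3 were higher and 4 lower at that p, with a median of 0.06 beside 0.36. Plk2, a polo-like kinase, had the smallest p, with 109, 89.6 and 107 CPM in SD mCherry, 229, 441 and 480 CPM in HFD mCherry and 179.7, 271 and 483 CPM in HFD Tert. Among 17 TGF-beta and activin genes, 3 were higher at that p, Inhbb, Tgfb1 and Ltbp2, and Tgfb1 had 47.8, 55.6 and 45.8 CPM in SD mCherry, 117, 237 and 190.5 CPM in HFD mCherry and 97.2, 106 and 184 CPM in HFD Tert. The 20 genes of oxidative phosphorylation had 0 at that p and a median of −0.16, beside −0.74 with 12 lower for diet, and the 20 lysosome genes had 0 and a median of 0.27, beside 0.71 with 11 higher. Mast cell genes, of which 8 were tested, had a median of −0.28 with 0 at that p, beside 2.18 with 5 higher for diet. In the diet comparison 14.1% of all genes were higher and 10% lower at that p. The oxidative phosphorylation median was 0.25 without SD mCherry replicate 3, the lysosome median 0.03 without HFD Tert replicate 27 and the mast cell median 0.05 without SD mCherry replicate 1. The p53 target and TGF-beta medians stayed between −0.08 and 0.24 when any 1 of the 6 libraries was left out.

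The 33 lists name 494 genes, not all of them tested. In HFD Tert against SD mCherry 113 of these had an unadjusted p under 0.05 (15.8% of all genes tested had). That number was 71 without HFD Tert replicate 27, 63 with only the 8 libraries of the series that hold Crisp1, and between 86 and 125 when any other of the 6 libraries was left out. Scaling by total counts in place of TMM moved the median log2 fold change of all genes by −0.11, from −0.06 to −0.17, so list medians on that scale were lower by about that much and are read against it.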

How the data were processed

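Poly-T selected RNA was copied into cDNA with random hexamers, according to the labels. The authors deposited raw counts, 1 table for each library with 24422 gene symbols, per the file headers. The submitters' processing notes name Subread, SAMtools, featureCounts 1.6.4 and build mm10, without role or order, while the annotation and strandedness are not given in the sources used here. Reads of overlapping exons therefore cannot be assigned to 1 gene, and 4 named genes have such overlaps in GENCODE M21 (mm10). Of the symbols, 23204 matched the RefSeq table of GRCm38.p6, the source of the coordinates.

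The counts of all 12 libraries in 4 groups were fitted in 1 edgeR 4.0.16 quasi-likelihood model (R 4.3.3), with filterByExpr, TMM factors of 0.854 to 1.15, robust dispersion and no covariate. The fit had 8 residual degrees of freedom and a common biological coefficient of variation of 0.536. All tests were 2-sided and adjusted by Benjamini-Hochberg over 16713 genes and a call at an adjusted p under 0.05. CPM uses the TMM-scaled library size, n is 3 libraries a group, and depth is given with the libraries. Counts of every replicate pair differed by more than sampling noise, with a chi-square per degree of freedom of at least 20.5. Tert, mCherry_Tert and Cdkn1a were also tested by exact permutation of log2(CPM + 0.1).

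Alternatives were RLE size factors, total counts, other filters, no robust estimation, DESeq2 1.42.0, limma-voom 3.58.1, only the groups compared, an epithelial score as covariate, leaving out each library and, chosen after seeing the data, only the 8 libraries with Crisp1 above 100 CPM, 2 from each group. The code was tested on simulated counts.

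Named genes are the 12 of smallest p in each direction with a mean of at least 5 CPM in the higher group and no overlap (predicted genes passed over), 7 diet genes, Tert, mCherry_Tert and Cdkn1a, and list members taken by smallest or largest p or as defining markers, while further members were chosen after their values were seen. Another diet gene is not reported here. The comparison, the 33 lists and these rules were chosen with earlier results of these data known. The lists were adipose progenitor, adipocyte, de novo lipogenesis, 3 for macrophages, lysosome, cholesterol efflux, inflammation, MHC class II, interferon response, complement, collagen, other matrix, TGF-beta and activin, endothelial, pericyte and smooth muscle, mesothelial, T cell, B cell, neutrophil, mast cell, erythrocyte, skeletal muscle, epididymis, epithelium, proliferation, p53 and senescence, telomerase and shelterin, glycolysis and hypoxia, oxidative phosphorylation, immediate early and the diet genes.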

Additional observations from a re-analysis of the deposited data

How the results depend on the processing

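No gene was called between HFD Tert and SD mCherry under 19 of 22 alternatives. The exceptions were DESeq2 with 966 calls and leaving out libraries, which gave 0 to 484 calls: 484 without SD mCherry replicate 3 (3424 genes at an unadjusted p under 0.05) and 1 without HFD mCherry replicate 15. Of the 33 named genes, which were in large part picked by their small p, DESeq2 called 28 (5.84% of all genes were called). The other alternatives together called 17 of them. The log2 fold change changed sign for 1, 4930404N11Rik, which was −0.0167 with only the 8 libraries that hold Crisp1. The diet comparison in mCherry mice, with 8 calls, gave 2 with RLE size factors, 2069 with DESeq2, 0 with limma-voom, 704 with the epididymis and epithelium score as covariate, 0 with only the 8 Crisp1 libraries, 0 with only the 2 groups compared, and 0 to 2082 when 1 library was left out, the highest without HFD mCherry replicate 15, and 686 without HFD Tert replicate 27. HFD Tert against HFD mCherry, with 0 calls, gave 847 with DESeq2, 476 with the covariate and 0 to 51 when 1 library was left out. Of the 494 genes on the lists, 113 had an unadjusted p under 0.05 (15.8% of all genes tested had). That number became 63 with only the Crisp1 libraries and 71 to 125 when 1 library was left out. The cause of these changes was not tested, beyond that fewer libraries enter some fits. The mCherry_Tert difference depends on the pseudocount, being 4.53 on log2(CPM + 0.1) and 1.69 with 1 in its place. No paired analysis was possible because no replicate number occurs in more than 1 group. With 3 libraries a group and this spread, a gene that misses the threshold is not shown to be equal between groups.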

Other observations

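Several further genes and lists showed values in HFD Tert against SD mCherry that belong to no group described above. Apoe, a lipoprotein component made by macrophages and stromal cells, had 2141, 2696 and 2746 CPM in SD mCherry, 2859, 3105 and 2823 CPM in HFD mCherry and 1599, 1398 and 1561 CPM in HFD Tert. The HFD Tert libraries were below all 6 mCherry libraries, with a log2 fold change of −0.73 ± 0.22 (SE) against SD mCherry (edgeR adjusted p = 0.18), and DESeq2 called the gene (adjusted p = 0.000465). Hif1a, the oxygen-responsive transcription factor, had 166, 262 and 217 CPM in SD mCherry, 218, 489 and 449 CPM in HFD mCherry and 506, 457 and 559 CPM in HFD Tert. Hk1, which encodes hexokinase 1, had 52.4, 48.7 and 66.6 CPM and 92.3, 105 and 93.8 CPM in SD mCherry and HFD Tert. Both were without overlap, while the glycolysis and hypoxia list of 19 genes as a whole had a median log2 fold change of 0.13. At an unadjusted p under 0.05, 3 of its genes were higher and 3 lower (6.96% and 8.87% of all genes were). Of 12 pericyte and smooth muscle genes all had a log2 fold change above 0, and 3 reached that p (6.96% of all genes were higher at it). The median of these 12 was 0.42, beside −0.97 for diet. This median was 0.05 when HFD Tert replicate 26 was left out and 1.29 when SD mCherry replicate 3 was. Higd1b, a pericyte gene, had 2.44, 2.13 and 1.27 CPM in SD mCherry and 3.501, 7.26 and 11.99 CPM in HFD Tert.

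Immediate early genes, which respond within minutes to stimuli such as tissue dissociation, had a median of −0.58 over 17 tested, beside −0.61 for diet. At an unadjusted p under 0.05, 0 were higher and 3 lower (6.96% and 8.87% of all genes were). Egr2 had the smallest p, with 170.5, 177 and 62.9 CPM in SD mCherry and 61.5, 47.4 and 60.5 CPM in HFD Tert, and Atf3 had 1546, 1627 and 493 and 544, 615 and 563 CPM. In both, SD mCherry replicate 3 was within or near the HFD Tert range. Proliferation genes had a median of 0.60 over 20 tested, with 2 higher at that p (6.96% of all genes were). Mki67, a marker of dividing cells, had 18.3, 12.5 and 10.2 CPM in SD mCherry and 16.9, 18.6 and 63.1 CPM in HFD Tert, the highest in replicate 27. Without that replicate the median of the list was 0.16.

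The remaining lists had few members at an unadjusted p under 0.05, which 6.96% of all genes reached as higher and 8.87% as lower. The median was 0.45 for 13 resident macrophage genes and 0.24 for 10 MHC class II genes, with 0 members at that p in either. Both changed sign without HFD Tert replicate 27, to −0.35 and −0.61. Complement had a median of 0.47 over 12 genes, with 1 lower, Cfi, and cholesterol efflux 0.17 over 12, with 1 higher and 1 lower. Telomerase and shelterin genes had a median of −0.04 over 16, with 2 higher, Tert and Gar1, and 1 lower. The medians were −0.12 for 14 T cell genes (0 at that p), 0.42 for 8 B cell genes (1 higher, and −0.03 without SD mCherry replicate 3), 1.23 for 4 neutrophil genes (1 higher, and 0.09 without HFD Tert replicate 26), 1.19 for 7 erythrocyte genes (0, and −0.19 without HFD Tert replicate 26) and 0.51 for 10 skeletal muscle genes (3 higher, and −0.095 without HFD Tert replicate 26). The complement median was 0.22 without SD mCherry replicate 3, and the medians for cholesterol efflux, telomerase and shelterin, and T cell genes stayed between −0.31 and 0.29 when any 1 of the 6 libraries was left out. Epithelium had a median of −0.16 over 13 genes with 0 at that p (0.35 without HFD Tert replicate 27), and 6 epididymis genes had a median of −2.88 with 1 lower. The median of these epididymis genes was 0.51 without SD mCherry replicate 3.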
